A study of Homo sapiens with 23 samples.

Results

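The Schlafen genes form a small family on chromosome 17. The human members considered were SLFN5, SLFN11, SLFN12, SLFN12L, SLFN13 and SLFN14, chosen by name. Of these 6 genes, 4 had values among the 21658 genes of the expression table (SLFN5, SLFN11, SLFN12 and SLFN13), while SLFN12L and SLFN14 were not analysed here. RNA was sequenced from 23 libraries of 4 ovarian cancer cell lines, OV-90, Kuramochi, OVSAHO and EFO-21, each as the parental line and as a line made resistant to prexasertib, an inhibitor of the checkpoint kinase CHK1, by raising the drug concentration over a long period. There were 3 libraries in each group, except parental OV-90 with 2. The labels call the libraries biological replicates but do not say whether the resistant cultures arose separately, nor whether drug was present at harvest. The p-values therefore measure the spread between these libraries.

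Schlafen proteins are nucleic acid binding proteins, and several of them are induced by interferon. SLFN11 binds stalled replication forks through replication protein A and blocks them irreversibly, and its loss is known in cancer cells that tolerate DNA-damaging drugs and inhibitors of the replication checkpoint. SLFN13 cleaves transfer RNA and ribosomal RNA, SLFN12 is an RNase stabilised by the phosphodiesterase PDE3A when a class of small molecules glues them together, and SLFN5 is a nuclear protein best known as a repressor of transcription.

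In the GRCh37 annotation the 6 genes lie within 317.7 kb of chromosome 17, all protein coding. SLFN5 (gene ID 162394) is at chr17:33570090-33600674 on the plus strand. The others are on the minus strand: SLFN11 (91607) at chr17:33677324-33700720, SLFN12 (55106) at chr17:33737941-33760302, SLFN13 (146857) at chr17:33762115-33775856, SLFN12L (100506736) at chr17:33791268-33864697 and SLFN14 (342618) at chr17:33871004-33887838. SLFN11 and SLFN13 are close copies. Of the 75-base windows of SLFN11 transcripts, 476 of 6545 (7.27%) also occur in SLFN13, and these make up 4.96% of SLFN13's windows. The share for SLFN12 was 0.13%, with SLFN12L, and SLFN5 had no such window. A read that lies wholly within shared sequence, with its mate, cannot be placed by its letters, so some of the signal of SLFN11 and SLFN13 may be uncertain in its source.

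Promoter windows are shown for the SLFN genes whose levels changed in resistant cells and for which RefSeq gave a sequence (3 of the 6 genes had one, SLFN11, SLFN12 and SLFN12L). Each runs from 250 bases before to 50 bases after the start of the gene on GRCh38.p14, 5′ to 3′ on the minus strand, with CpG dinucleotides, the sites of DNA methylation, in capitals. The SLFN11 window is chr17:35373572-35373871 and the SLFN12 window chr17:35433125-35433424.
SLFN11: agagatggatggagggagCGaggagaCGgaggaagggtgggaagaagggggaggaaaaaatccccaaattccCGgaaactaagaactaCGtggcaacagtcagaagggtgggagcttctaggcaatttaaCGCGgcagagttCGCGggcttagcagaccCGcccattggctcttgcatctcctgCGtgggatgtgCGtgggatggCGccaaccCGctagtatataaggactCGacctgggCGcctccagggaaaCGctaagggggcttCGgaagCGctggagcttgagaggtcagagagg
SLFN12: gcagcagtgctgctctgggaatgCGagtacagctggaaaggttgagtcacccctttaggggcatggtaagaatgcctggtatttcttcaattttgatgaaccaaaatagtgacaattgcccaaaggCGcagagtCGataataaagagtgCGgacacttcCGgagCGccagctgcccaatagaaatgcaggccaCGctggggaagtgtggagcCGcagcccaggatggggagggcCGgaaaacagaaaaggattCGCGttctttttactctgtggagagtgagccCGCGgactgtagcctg
The SLFN11 window holds 18 CpG dinucleotides and has a GC content of 58.0%, and 55.5% of all promoter windows have fewer. The SLFN12 window holds 13, and 48.3% of windows have fewer. The median of all windows is 14. SLFN12L holds 2, with 11% of windows below it. The interferon response element, searched as GAAA, any 2 bases and GAAA, was in 3.57% of 35116 windows when both strands were searched, in neither of the windows printed above, and in SLFN12L once, 126 bases before the start. The ETS letters CCGGAAGT were in 4.14% of windows and not in SLFN11. They occurred once in SLFN12, on the strand opposite to the printed one, 96 bases before the start, overlapping a CpG and the shorter GGAA core. The GGAA core alone was in 95.45% of windows. Methylation was not measured, and a match to letters is only a description.

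Values below are the deposited log2 expression of each gene, quantile normalised by the authors. The 10th percentile of a library lay between 1.70 and 1.87, and a value under it is called the bottom of the scale. Levels are compared between samples of the same gene only, since the values are not per length. Correlations between libraries of a group were 0.971 to 0.988, except for the parental OV-90 libraries 2 and 3 at 0.952, which differed by more than 3 log2 units at 494 genes. Of 8 epithelial markers, KRT8 and KRT18 had means of 9.54 to 12.3 in the 4 parental lines, and EPCAM ranged from 6.47 in Kuramochi to 12.3 in OV-90. The others were low in some lines: KRT7 was 2.76 to 3.76 outside OVSAHO, CDH1 4.62 and 4.65 in Kuramochi and EFO-21, PAX8 2.10 in OV-90, WT1 1.87 in OV-90 and at the bottom in EFO-21, and MUC16 2.48 in Kuramochi and at the bottom in OV-90. Parental OV-90 also had high levels of LYZ, a leukocyte marker (12.1), and LUM, a fibroblast marker (12.8). The libraries came from bulk cultures, where fewer cells expressing a gene and less RNA per cell cannot be told apart.

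All 4 measured Schlafen genes were highest in EFO-21 among the parental lines. A gene was called different when its adjusted p in limma was under 0.05 and the difference was at least 2-fold, and by this rule EFO-21 exceeded each of the other 3 parental lines for SLFN5, SLFN11, SLFN12 and SLFN13. The same held for 7.37% of all genes. Over the 6 pairs of lines and 4 genes, 19 of 24 comparisons were called, where the share of all genes called was 47% for OV-90 and Kuramochi, 48.1% for OV-90 and OVSAHO, 50.2% for OV-90 and EFO-21, 37.6% for Kuramochi and OVSAHO, 41.3% for Kuramochi and EFO-21 and 44.2% for OVSAHO and EFO-21.

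**Figure D1:**
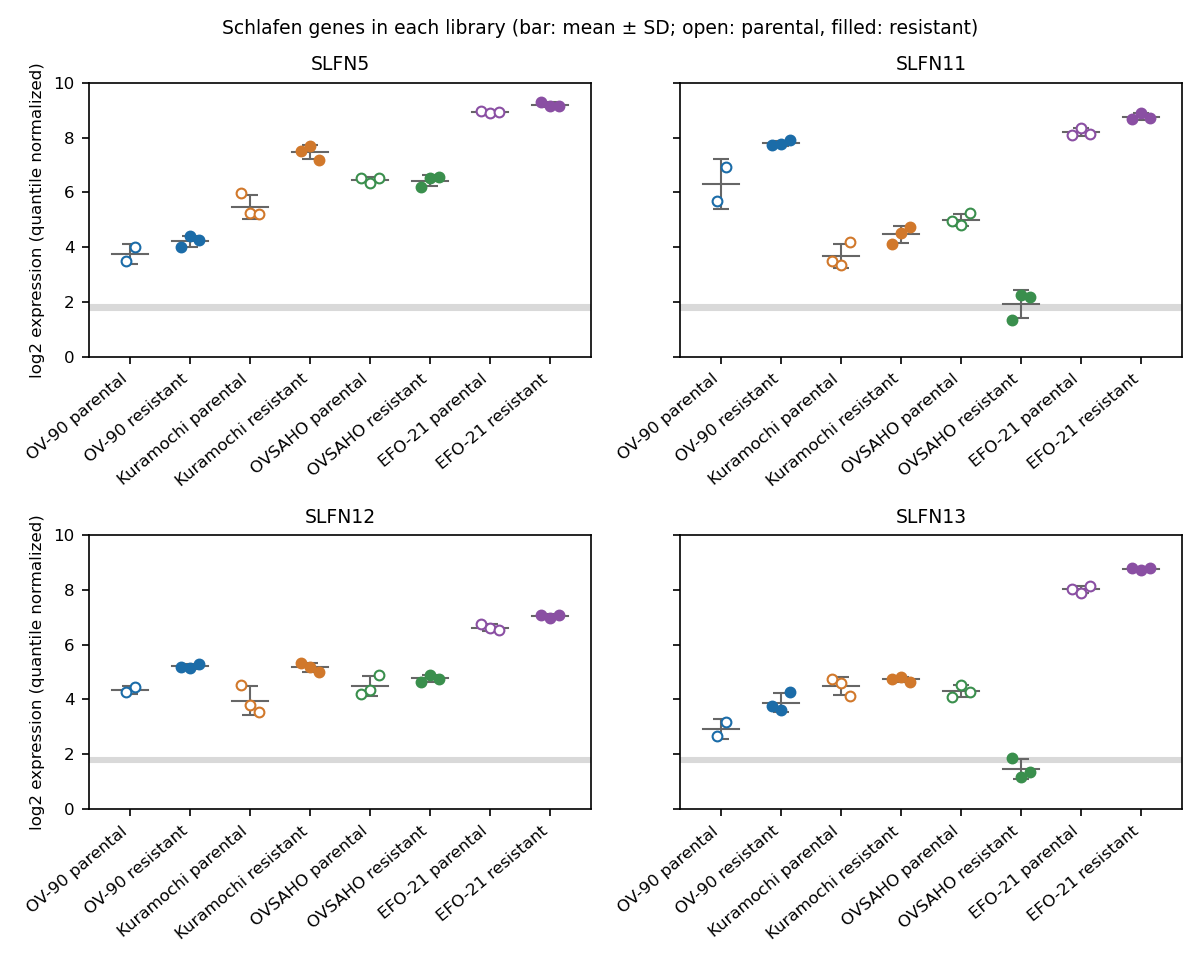
The log2 expression of SLFN5, SLFN11, SLFN12 and SLFN13 in each of the 23 libraries, by line (open circles parental, filled circles resistant), with the mean ± SD of each group and a grey band at the 10th percentile of the libraries. EFO-21 has the highest values of every gene, and resistant OVSAHO drops to the band for SLFN11 (1.34 to 2.25) and SLFN13 (1.16 to 1.87).

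For SLFN11 every parental line stood apart from the others. In parental EFO-21 its log2 expression was 8.11, 8.36 and 8.15. Parental OV-90 had 5.67 and 6.94, parental OVSAHO 4.97, 4.80 and 5.24, and parental Kuramochi 3.48, 3.36 and 4.19. The order of the means was EFO-21 (8.21 ± 0.13, SD, n = 3), OV-90 (6.31 ± 0.90, n = 2), OVSAHO (5.003 ± 0.22, n = 3) and Kuramochi (3.68 ± 0.45, n = 3), and each neighbour in it was separated from the next. EFO-21 exceeded OV-90 by 1.90 (limma adjusted p = 0.000761), OV-90 exceeded OVSAHO by 1.30 (adjusted p = 0.00774) and OVSAHO exceeded Kuramochi by 1.33 (adjusted p = 0.00423). The step between OV-90 and OVSAHO depended on OV-90 library 3: without it the difference was 0.67 with a limma adjusted p of 0.0864.

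SLFN13 had a different order. Its log2 expression was 8.04, 7.88 and 8.15 in parental EFO-21, 4.75, 4.59 and 4.14 in Kuramochi, 4.09, 4.52 and 4.29 in OVSAHO and 2.67 and 3.19 in OV-90. EFO-21 stood above every other line without overlap, Kuramochi and OVSAHO overlapped, and OV-90 was below both. The difference between Kuramochi and OVSAHO was 0.19 (limma adjusted p = 0.447), and OV-90 was lower than OVSAHO by 1.37 (adjusted p = 0.000425). OV-90 was therefore second for SLFN11 and last for SLFN13.

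SLFN5 followed yet another order, EFO-21 above OVSAHO, Kuramochi and OV-90. The parental values were 8.99, 8.90 and 8.93 in EFO-21, 6.53, 6.36 and 6.52 in OVSAHO, 5.97, 5.25 and 5.20 in Kuramochi and 3.49 and 4.01 in OV-90. No 2 of these groups overlapped. EFO-21 exceeded OVSAHO by 2.47 (limma adjusted p = 2.27e-06), and Kuramochi exceeded OV-90 by 1.73 (adjusted p = 7.89e-05). Kuramochi was 0.99 below OVSAHO with an adjusted p of 0.00176, just under the 2-fold limit.

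SLFN12 was high in EFO-21 alone, and the other 3 parental lines were not separated. Its values were 6.75, 6.60 and 6.53 in EFO-21, 4.19, 4.34 and 4.89 in OVSAHO, 4.25 and 4.45 in OV-90 and 4.54, 3.78 and 3.54 in Kuramochi. EFO-21 exceeded OVSAHO by 2.15 (limma adjusted p = 4.75e-05), while OV-90 differed from OVSAHO by -0.12 (adjusted p = 0.726), Kuramochi from OVSAHO by -0.52 (adjusted p = 0.116) and OV-90 from Kuramochi by 0.40 (adjusted p = 0.258).

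The resistant lines did not share a direction in SLFN11. Of 16 comparisons of a resistant with its parental line, over the 4 genes and 4 lines, 5 were called, 3 of them higher and 2 lower in resistant cells, and 10 had an adjusted p under 0.05 whatever the fold. The change was above 0 in 13 of them. Among all genes the called share was 16.1% in OV-90 (9.5% higher and 6.56% lower), 22.5% in Kuramochi (11.8% and 10.6%), 7.76% in OVSAHO (3.93% and 3.83%) and 14.3% in EFO-21 (7.11% and 7.15%). Whatever the fold, 36%, 46.9%, 33.3% and 48.4% of genes had an adjusted p under 0.05 in these lines. The groups did not overlap in 12 of the 16 comparisons, where this held for 69.1%, 59.2%, 48.4% and 59.7% of all genes in OV-90, Kuramochi, OVSAHO and EFO-21.

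**Figure D2:**
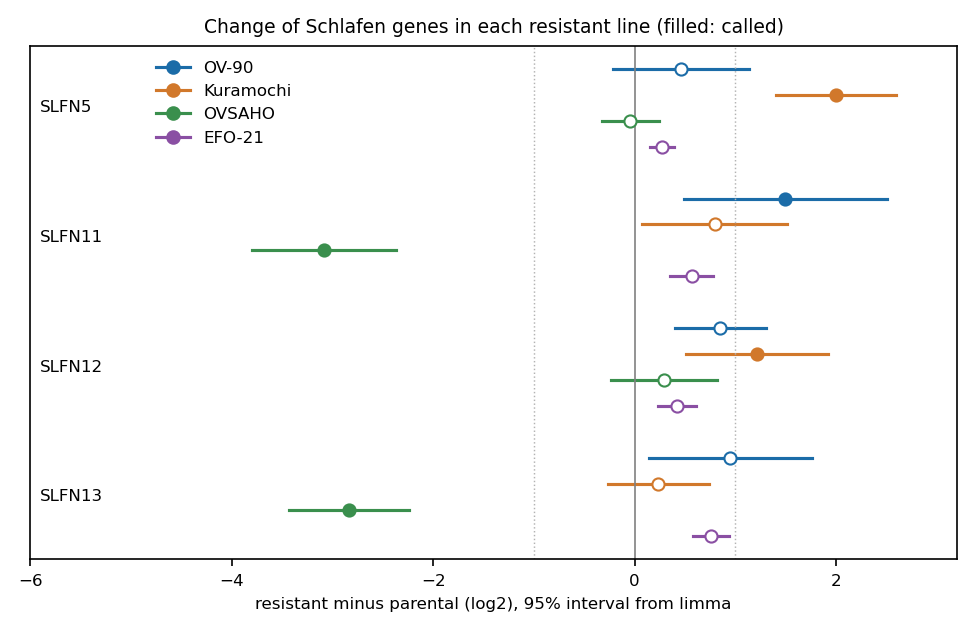
The resistant minus parental difference in log2 expression of the 4 Schlafen genes in each line with its 95% interval from limma (filled circles are called, dotted lines mark 2-fold). SLFN11 and SLFN13 in OVSAHO lie at -3.08 and -2.84, and the other 14 points lie between -0.04 and 2.00.

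In OVSAHO, SLFN11 and SLFN13 fell together. SLFN11 was 4.97, 4.80 and 5.24 in the parental libraries and 1.34, 2.25 and 2.17 in the resistant ones, and 1 of the 3 resistant libraries was at the bottom of the scale. SLFN13 was 4.09, 4.52 and 4.29 in parental and 1.87, 1.16 and 1.35 in resistant libraries, 2 of which were at the bottom. Neither gene had overlapping groups. SLFN11 fell by 3.08 (SE 0.29, 8.48-fold, limma adjusted p = 0.00111) and SLFN13 fell by 2.84 (SE 0.24, 7.15-fold, adjusted p = 0.000813), where 3.83% of all genes were called lower. With values raised to the bottom of their library the falls were 2.93 and 2.50 on the log2 scale.

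SLFN5, at the start of the cluster, and SLFN12, between SLFN11 and SLFN13, did not pass the test in OVSAHO. SLFN5 was 6.53, 6.36 and 6.52 in parental and 6.20, 6.53 and 6.55 in resistant libraries, a difference of -0.04 (95% interval -0.32 to 0.24, limma adjusted p = 0.821). SLFN12 was 4.19, 4.34 and 4.89 against 4.65, 4.90 and 4.74, a difference of 0.29 (interval -0.23 to 0.81, adjusted p = 0.348). The groups of both genes overlapped, and both intervals lay above the falls of SLFN11 and SLFN13.

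Markers of other cell types moved with the falls in OVSAHO. The summed level of 4 leukocyte markers was 6.44 to 7.45 in parental and 4.30 to 4.41 in resistant libraries, with 3 of the 4 lower (PTPRC, CD3E and LYZ) and PTPRC and CD3E at the bottom in the resistant ones. The summed level of 3 fibroblast markers was 3.27 to 3.95 in parental and 7.41 to 7.71 in resistant libraries, with DCN and LUM higher. The summed level of 8 epithelial markers went from between 12.5 and 12.6 to between 11.5 and 11.6, with 4 of 8 lower and none at the bottom. Their part in the results on SLFN11 and SLFN13 was not tested.

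**Figure D3:**
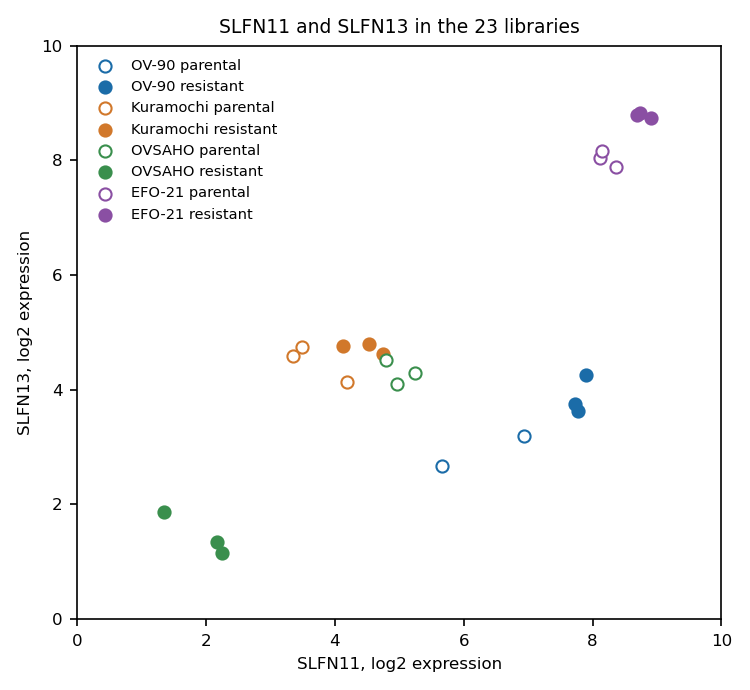
SLFN13 against SLFN11 log2 expression in the 23 libraries, with line by colour and open or filled circles for parental and resistant. The resistant OVSAHO libraries lie alone at the lower left, EFO-21 at the upper right, and OV-90 has high SLFN11 (5.67 to 7.91) beside SLFN13 of 2.67 to 4.26.

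In OV-90, SLFN11 was higher in the resistant line. Its log2 expression was 5.67 and 6.94 in parental libraries 2 and 3 and 7.73, 7.77 and 7.91 in the resistant ones, which did not overlap. The rise was 1.497 (SE 0.39, 2.82-fold, limma adjusted p = 0.0417), where 9.5% of genes were called higher. The call rested on which libraries were used: without parental library 2 the rise was 0.86 (adjusted p = 0.0172, under 2-fold), without library 3 it was 2.13 (adjusted p = 0.00287), and without any of the resistant libraries the adjusted p was 0.110 to 0.129. The 2 parental libraries were the least alike of any group, and the number of genes called in OV-90, 3478, was 2397 without library 2, 5975 without library 3, and 309, 425 and 356 without resistant library 13, 14 and 15, so the 16.1% share of called genes in OV-90 also rested on single libraries.

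The other Schlafen genes of OV-90 were not called. SLFN12 was 4.25 and 4.45 in parental and 5.17, 5.14 and 5.29 in resistant libraries, a difference of 0.85 (SE 0.17, limma adjusted p = 0.0270) that was under 2-fold. SLFN13 was 2.67 and 3.19 against 3.75, 3.62 and 4.26, a difference of 0.95 (SE 0.31, adjusted p = 0.0680). SLFN5 was 3.49 and 4.01 against 4.01, 4.39 and 4.24, a difference of 0.46 (SE 0.26, adjusted p = 0.210), with its groups touching at 4.01.

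In Kuramochi, SLFN5 and SLFN12 rose. SLFN5 was 5.97, 5.25 and 5.20 in parental and 7.52, 7.70 and 7.20 in resistant libraries, well apart. It rose by 2.00 (SE 0.25, 3.997-fold, limma adjusted p = 0.00105), where 11.8% of genes were called higher. SLFN12 was 4.54, 3.78 and 3.54 in parental and 5.32, 5.20 and 4.99 in resistant libraries and rose by 1.22 (SE 0.29, 2.33-fold, adjusted p = 0.0152). The SLFN12 call was lost without parental library 5 or resistant library 16 or 17, with limma adjusted p values of 0.0510, 0.0582 and 0.0509.

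SLFN11 and SLFN13 did not pass the test in Kuramochi. SLFN11 was 3.48, 3.36 and 4.19 in parental and 4.12, 4.53 and 4.75 in resistant libraries, which overlapped through parental library 6. The difference was 0.79 (SE 0.30, limma adjusted p = 0.0708), and without library 6 it was 1.05 (adjusted p = 0.0274). SLFN13 was 4.75, 4.59 and 4.14 against 4.75, 4.80 and 4.62, a difference of 0.24 (SE 0.21, adjusted p = 0.390). In resistant Kuramochi 5 of 8 epithelial markers were lower, with CDH1 and MUC16 at the bottom, and their part in the rises of SLFN5 and SLFN12 was not tested.

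In EFO-21, where the levels were already highest, all 4 measured genes were slightly higher in resistant libraries, each by less than 2-fold. SLFN13 was 8.04, 7.88 and 8.15 in parental and 8.79, 8.73 and 8.82 in resistant libraries, a difference of 0.76 (SE 0.07, limma adjusted p = 0.000518). SLFN11 was 8.11, 8.36 and 8.15 against 8.69, 8.91 and 8.73, a difference of 0.57 (SE 0.09, adjusted p = 0.00319). SLFN12 was 6.75, 6.60 and 6.53 against 7.07, 6.97 and 7.09, a difference of 0.42 (SE 0.08, adjusted p = 0.00621). SLFN5 was 8.99, 8.90 and 8.93 against 9.30, 9.16 and 9.17, a difference of 0.27 (SE 0.05, adjusted p = 0.00612). None of the groups overlapped, and 25% of all genes were higher in resistant EFO-21 at an adjusted p under 0.05 without a fold limit. In a single fit of all 23 libraries, which shares 1 estimate of the spread, SLFN13 still passed (limma adjusted p = 0.00678), while SLFN5, SLFN11 and SLFN12 did not (adjusted p of 0.254, 0.126 and 0.111).

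The changes differed between lines. Of 24 differences of changes, over 4 genes and 6 pairs of lines, 11 passed an adjusted p of 0.05 in limma. The share of all genes that did so was 56.1% for OV-90 and Kuramochi, 36.7% for OV-90 and OVSAHO, 47.7% for OV-90 and EFO-21, 45.9% for Kuramochi and OVSAHO, 48.4% for Kuramochi and EFO-21 and 32.4% for OVSAHO and EFO-21. OVSAHO differed from each of the other 3 lines in SLFN11 and in SLFN13, and Kuramochi differed from each of the others in SLFN5. Averaged over the 4 lines, SLFN5 was 0.67 higher (SE 0.09, limma adjusted p = 8.14e-06) and SLFN12 0.69 higher (SE 0.10, adjusted p = 1.99e-05), while SLFN11 averaged -0.06 (SE 0.15, adjusted p = 0.758) and SLFN13 -0.22 (SE 0.11, adjusted p = 0.0803). These SEs and p-values rest on the spread between libraries, not on that between the 4 lines. The SLFN5 changes were 0.46, 2.00, -0.04 and 0.27 in OV-90, Kuramochi, OVSAHO and EFO-21, and those of SLFN12 were 0.85, 1.22, 0.29 and 0.42. Both were largest in Kuramochi, and whether they are common to resistant lines was not tested. None of the 4 averages reached 2-fold, as 6.82% of all genes did, and 58.4% of all genes had an averaged change with an adjusted p under 0.05.

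Across the 8 group means, as a description, SLFN12 and SLFN13 varied most alike (Pearson r = 0.83) and SLFN5 and SLFN11 least (r = 0.27), with SLFN11 and SLFN13 at 0.75. The 8 means share 4 lines, so the parental and resistant points of a line are not independent. Among 16712 genes, the 3 most like SLFN11 were PCDHB16 (r = 0.962), PCDHB8 (0.961) and STX3 (0.954). Those most like SLFN5 were LOC400541, TMEM187 and ZNF681 (0.988 to 0.992), those most like SLFN12 were CCDC50, PSMD10P2 and DDX19A (0.986 to 0.988), and those most like SLFN13 were SNN, MROCKI and BCL11B (0.964 to 0.978). Of these 12 genes, 2 stayed in the lists with Spearman's correlation and 4 when the correlation ran over the 23 libraries. Spearman's values over 8 means were tied between genes, and the count of 2 depends on how ties were broken. LOC400541 and TMEM187 (both 1 with SLFN5) and BCL11B (0.976 with SLFN13) equalled genes in the lists but were not kept. MROCKI had values at the bottom of the scale in every group outside EFO-21, and PSMD10P2 and BCL11B in some of these groups. The correlations of these genes therefore rest in part on values near the bottom.

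Values were also taken for 9 measured genes near the cluster (LIG3, RFFL, RAD51D, FNDC8 and NLE1 before SLFN5, and SNORD7, AP2B1, RASL10B and GAS2L2 after SLFN14). In OVSAHO, where SLFN11 and SLFN13 fell, 0 of the 9 were called, beside 7.76% of all genes, so a count of 0 sets them little apart. RASL10B came close there, higher by 0.95 (1.93-fold, limma adjusted p = 0.000278). In Kuramochi 0 of the 9 were called, beside 22.5% of all genes. RASL10B was higher in resistant OV-90 by 1.80 and in resistant EFO-21 by 2.38. GAS2L2 was higher in resistant EFO-21 by 2.66, but its parental mean of 1.28 lay under the 10th percentile of the libraries. The size of that rise is therefore uncertain. The median change of the 9 genes was 0.09 in OVSAHO, beside 0.00 for all genes, and 0.34, -0.10 and 0.52 in OV-90, Kuramochi and EFO-21.

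**Figure D4:**
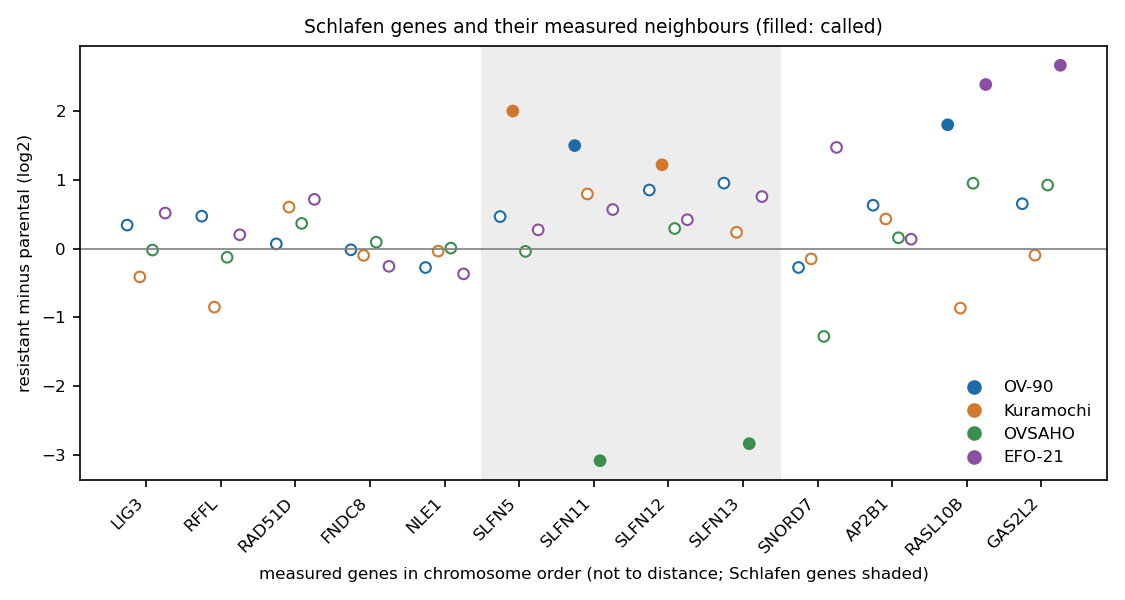
The resistant minus parental difference in log2 expression of 9 measured genes near the cluster and the Schlafen genes in chromosome order, equally spaced, with the 4 Schlafen genes shaded and the lines by colour (filled circles are called). In OVSAHO only SLFN11 and SLFN13 are filled among the 13 genes.

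Interferon signalling, through receptors, JAK kinases and STAT factors, is a known inducer of the family. Of 13 genes, from the receptor genes IFNAR1 and IFNAR2 to CGAS, which senses DNA in the cytosol, and its adaptor STING1, none was called higher in any line, beside 9.5%, 11.8%, 3.93% and 7.11% of all genes in OV-90, Kuramochi, OVSAHO and EFO-21. STING1 was called lower in OV-90 (-1.40, limma adjusted p = 0.00920), CGAS in Kuramochi (-1.37, adjusted p = 0.0257) and the kinase gene JAK1 in EFO-21 (-1.02, adjusted p = 4.37e-05). STING1 came close to a call in EFO-21, higher by 0.9985 (1.998-fold, limma adjusted p = 2.38e-05). Whatever the fold, 3, 5, 5 and 11 of the 13 had an adjusted p under 0.05 in OV-90, Kuramochi, OVSAHO and EFO-21. The shares of all genes were 36%, 46.9%, 33.3% and 48.4%. In EFO-21 5 of the 11 were higher and 6 lower. The medians of the list were -0.15, 0.18, 0.02 and 0.17 in OV-90, Kuramochi, OVSAHO and EFO-21, beside -0.06, -0.02, 0.00 and 0.01 for all genes.

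Among 34 interferon-stimulated genes, 11 were called higher and 0 lower in EFO-21, beside 7.11% and 7.15% of all genes. The median was 0.71, and IFI6, an antiviral membrane protein gene, rose by 1.86 (limma adjusted p = 4.78e-05). In OVSAHO 1 gene was higher and 7 were lower, beside 3.93% and 3.83% of all genes, with a median of -0.28 and IFI27 lowest at -2.18. Kuramochi had 6 higher and 6 lower, beside 11.8% and 10.6% (median -0.03), with BST2, the antiviral tetherin, at -5.01, and OV-90 had 2 higher and 2 lower, near the 9.5% and 6.56% of all genes (median -0.35), DTX3L at 1.35 and IFI35 at -1.53. OAS3, which makes an activator of RNase L, was called higher in all 4 lines, by 1.14, 2.88, 1.21 and 1.71 in OV-90, Kuramochi, OVSAHO and EFO-21. The limma adjusted p of OAS3 was 0.0463 in OV-90, where the number of called genes depended on single libraries. In parental Kuramochi 2 of 3 OAS3 values were at the bottom of the scale.

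A list of 24 genes of the replication fork and its checkpoint held those of replication protein A, the CUL4 ligase, the MCM helicase, ATR and CHK1. It was not limited to known partners of SLFN11. None of the 24 was called in OVSAHO or EFO-21, beside 7.76% and 14.3% of all genes. Without a fold limit 16 of the 24 had an adjusted p under 0.05 in OVSAHO (14 higher) and 15 in EFO-21 (13 higher), beside 33.3% and 48.4% of all genes, among them the helicase gene MCM2, higher by 0.90 in EFO-21 (limma adjusted p = 6.10e-05). In Kuramochi 2 were higher and 1 lower, beside 11.8% and 10.6% of all genes. CHEK1, which encodes the target of prexasertib, was higher there by 2.63 (limma adjusted p = 6.25e-06), from between 6.65 and 6.81 to between 9.34 and 9.42. The ligase gene CUL4A was lower there by 1.90. In OV-90 2 were higher and 2 lower, near the 9.5% and 6.56% of all genes. WEE1, which encodes a kinase that restrains mitosis, was at 1.43 in OV-90 and CDC45, a helicase component, at -1.04. The medians were 0.21, 0.03, 0.28 and 0.30 in OV-90, Kuramochi, OVSAHO and EFO-21.

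Of 11 genes known to regulate SLFN11 through chromatin or transcription, among them EZH2, EED and SUZ12 of the Polycomb complex that silences genes, the DNA methyltransferases, the histone deacetylases and the ETS factors, none was called in OVSAHO or EFO-21, beside 7.76% and 14.3% of all genes. Without a fold limit 7 of the 11 had an adjusted p under 0.05 in OVSAHO (6 higher) and 9 in EFO-21 (7 higher), beside 33.3% and 48.4% of all genes. In EFO-21 DNMT1, the maintenance DNA methyltransferase gene, was higher by 0.87 (limma adjusted p = 7.71e-05) and the deacetylase gene HDAC2 was at -0.68 (adjusted p = 0.000183). The median change of the 11 genes in OVSAHO was 0.30. In OV-90 1 of the 11 was called higher and 1 lower, beside 9.5% and 6.56% of all genes. In Kuramochi 1 was called higher and 2 lower, beside 11.8% and 10.6%. FLI1, an ETS factor that activates SLFN11, was lower in resistant OV-90 (-1.97), where SLFN11 was higher, and it was higher in resistant Kuramochi (1.004). It was at the bottom in all 6 OVSAHO libraries and between 7.44 and 8.12 in EFO-21. SUZ12 was higher in OV-90 (1.16, limma adjusted p = 0.0499), and EED and EZH2 were lower in Kuramochi (-1.10 and -1.01).

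**Figure D5:**
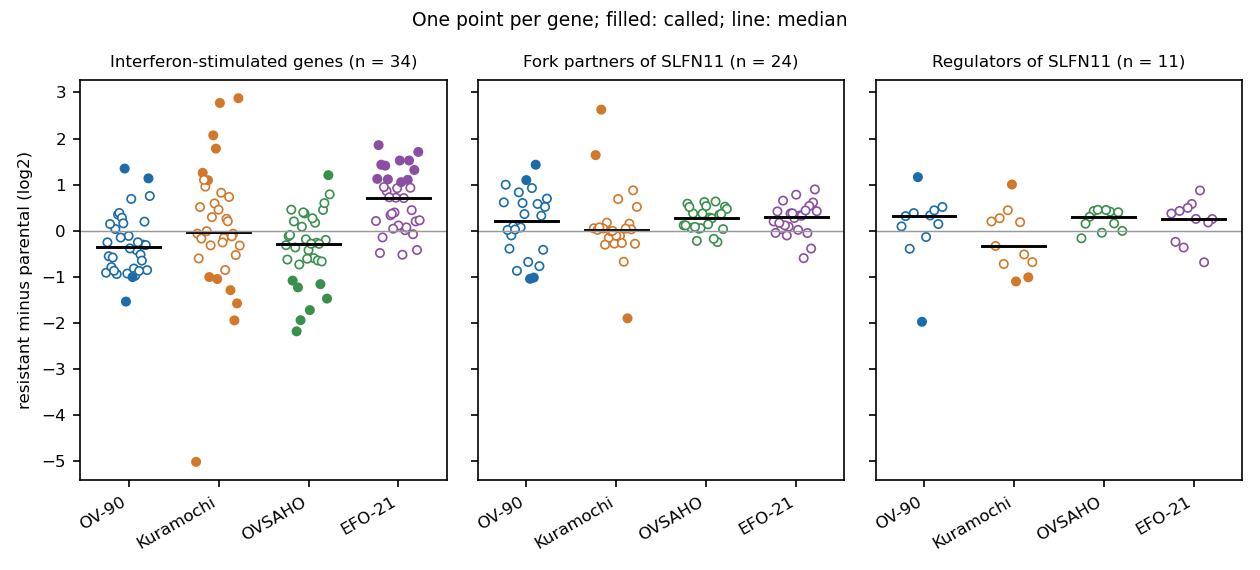
The resistant minus parental difference in log2 expression of each gene of 3 lists, by line, with filled circles for called genes and a line at the median. The lists are 34 interferon-stimulated genes, 24 genes of the replication fork and its checkpoint (headed fork partners) and 11 regulators of SLFN11. The EFO-21 column of the first panel has 11 filled points above 0 and none below, and the OVSAHO columns of the other panels have no filled points.

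PDE3A, the partner that stabilises SLFN12, was called in all 4 lines while SLFN12 itself was called only in Kuramochi. PDE3A was 3.10 to 3.41 in parental and 6.01 to 6.28 in resistant OVSAHO, a rise of 2.90. It was higher by 1.05 in OV-90 (limma adjusted p = 0.0288), from a parental mean of 2.00 that was little above the bottom of the scale. The number of called genes in OV-90 depended on single libraries. In Kuramochi PDE3A was lower by 2.08, with all 3 resistant libraries at the bottom. In EFO-21 the parental values were 0.08 to 0.36, at the bottom, and the resistant values 3.72 to 3.91, so no fold was given. Its relative PDE3B was higher in OVSAHO by 2.10, from the bottom of the scale, and lower in EFO-21 by 1.21, where 2 of 3 parental and all 3 resistant values were at the bottom.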

How the data were processed

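RNA from 23 libraries was sequenced as stranded mRNA libraries. Per the study's methods and the submitters' notes the genome build was GRCh37 (hg19). The authors left out exons with few reads, fitted a robust linear model to the exon and junction reads of a gene, and then applied quantile normalisation. The deposited values are log2 expression per gene. They hold no counts, so the depth behind a value is unknown and no interval rests on it. All columns belonged to this series (0 did not).

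Groups came from the labels. Resistant and parental libraries of each line were compared with limma 3.58.1 in R 4.3.3 (moderated test with a mean-variance trend, Benjamini-Hochberg adjustment over all 21658 genes), with only the libraries of that line. Parental lines were fitted together, and differences of changes in 1 fit of all 23 libraries. The tests were checked on simulated data, with 200 genes given a log2 change of 2. In the 4 resistant versus parental comparisons 61% to 82% of these were recovered, so a gene that did not pass may still have changed. At most 5.1% of calls there were unchanged genes. Each simulated gene had 1 spread for all groups, unlike the parental OV-90 libraries, which were less alike than the other groups. The simulation also changed only 200 genes, while 1681 (OVSAHO) to 4864 (Kuramochi) were called in the real comparisons. The shares recovered and wrongly called therefore need not hold for the real data. Smallest exact permutation p-values would be 0.1, so none were used. Shared windows were counted on transcripts of the GRCh37 annotation.

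The Schlafen genes and the lists were chosen with earlier results of these data known. Named genes were the family, in each list the called gene with the largest rise and fall per line or called in 3 lines in the same direction, 5 measured neighbours per side (of which 1 is not reported here), and the 3 genes most alike each member. EZH2, MCM2, DNMT1 and HDAC2, and STING1 in EFO-21, were added after their values were seen. Alternatives were other fold limits, no trend, a filter on low values, values raised to the bottom of their library, 1 fit of all libraries and leaving out each library.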

Additional observations from a re-analysis of the deposited data

Results flagged for a closer look

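The change of a Schlafen gene on resistance differed between lines in 11 comparisons, each a limma test of the difference of 2 changes, given as log2 with its adjusted p. For SLFN11 the change in OVSAHO lay below that in OV-90 (difference 4.58, adjusted p = 3.55e-07), Kuramochi (3.88, adjusted p = 3.17e-07) and EFO-21 (OVSAHO minus EFO-21, -3.65, adjusted p = 1.53e-06). For SLFN13 the same 3 differences were 3.79 (adjusted p = 7.32e-08), 3.07 (adjusted p = 9.94e-08) and -3.59 (adjusted p = 3.60e-08).

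For SLFN5 the change in Kuramochi was above that in OV-90 (OV-90 minus Kuramochi, -1.53, adjusted p = 0.000113), OVSAHO (2.04, adjusted p = 3.12e-06) and EFO-21 (1.73, adjusted p = 1.88e-05). For SLFN12 the change in Kuramochi was above that in OVSAHO (0.93, adjusted p = 0.0131) and EFO-21 (0.80, adjusted p = 0.0282). The latter was not called when any of 5 libraries was left out (adjusted p of 0.0570 to 0.0857). Groups of 3 libraries or fewer were too small to test a single library for standing apart.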

How the results depend on the processing

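The falls of SLFN11 and SLFN13 in OVSAHO passed the test under every alternative run, with values of -3.25 to -2.80 and -3.04 to -2.69 when 1 library was left out. The rise of SLFN11 in OV-90, 1.497, was not called without the trend (1.497, adjusted p = 0.0525) or with values raised to the bottom of the library (1.497, adjusted p = 0.0643), and ranged from 0.86 to 2.13 when 1 library was left out. Without 1 of its parental libraries OV-90 has a lone one, assumed to vary like the others. SLFN11 in Kuramochi ranged from 0.63 to 1.05. With no fold limit SLFN11 was called in EFO-21 (0.57).

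Schlafen genes called in OV-90 were 1, and 0 without the trend or with raised values, 2 with a 1.5-fold limit or none, and 0 to 1 with a library left out. In EFO-21 they were 0, 1 with a 1.5-fold limit and 4 with none. In Kuramochi they were 2, and 1 to 3 with a library left out. Of the 12 genes most alike, 2 and 4 remained under other correlations, the 2 depending on how tied Spearman values were ordered.

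With a library left out the sign turned for SLFN5 in OVSAHO (-0.10 to 0.071), for SLFN12 in parental OV-90 minus OVSAHO (-0.27 to 0.084), for the OV-90 minus EFO-21 difference of changes in SLFN5 (-0.065 to 0.45) and SLFN13 (-0.064 to 0.46), for the OVSAHO minus EFO-21 difference in SLFN12 (-0.27 to 0.080), and for the mean change of SLFN11 (-0.22 to 0.10), none of which passed the test. The SLFN12 difference between Kuramochi and EFO-21 lost its call without any of 5 libraries (adjusted p 0.0570 to 0.0857). The cause was not tested.

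No paired analysis was possible because the table's columns carry library numbers and no replicate numbers. The precision rests on the 2 or 3 libraries per group, since the depth is unknown.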

Other observations

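Schlafen-like 1 (SLFNL1), a relative outside the chromosome 17 cluster, and its antisense gene SLFNL1-AS1 were looked at after their values were seen. SLFNL1 was not called in any line, with changes of 0.19, 0.15, 0.24 and -0.03 in OV-90, Kuramochi, OVSAHO and EFO-21. SLFNL1-AS1 was higher in resistant Kuramochi by 1.06 (SE 0.15, limma adjusted p = 0.00194), with 4.86 to 5.24 in parental and 6.10 to 6.28 in resistant libraries, and was not called in the other lines. The sources used here do not say whether reads were counted by strand, so the signal of the antisense gene and its partner cannot be told apart. E2F3P1, a pseudogene inside the Schlafen cluster, was not called in any line and changed by 0.81 (SE 0.27, limma adjusted p = 0.0663) in OVSAHO.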
